A study of Mus musculus with 2 samples.

Results

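The genes that make, break down and read cyclic AMP were followed across the endocrine cells of mouse pancreatic islets. They were taken by symbol from the rows present in both deposited tables, as adenylyl cyclases (Adcy), phosphodiesterases (Pde), subunits of protein kinase A (PKA; Prkar and Prkac), Rap exchange factors (Rapgef) and the CREB, CREM and CRTC factors. This gave 62 genes among the 27729 listed in both tables and the 33038 listed in either. A further symbol that fits the pattern had a row in 1 table only and was left out. The members were 10 cyclases, 25 phosphodiesterases, 4 regulatory and 2 catalytic PKA subunits, 2 Epac proteins, 4 other Rap exchange factors, 5 CREB, CREM and CRTC genes, 6 Creb3 and Creb5 factors, and 4 antisense transcripts of Rapgef3 and Rapgef4.

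The samples were control islets of C57BL/6J mice at 8 weeks of age, male according to the methods, handpicked after collagenase digestion and dissociated with trypsin. Both libraries were prepared by RevGel-seq, in which each cell is joined to a barcoded bead and held apart from the others in a reversible gel. The methods describe them as technical replicates of 10000 input cells each from the same islet preparation, so the spread between them, and every p-value below, holds no difference between animals. No treatment or genotype was compared, and the comparisons made here are between kinds of cells within the islets.

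Cyclic AMP is made from ATP by adenylyl cyclases, which answer to G proteins, calcium or both, and is broken down by phosphodiesterases, some of which prefer cyclic GMP. It binds the regulatory subunits of PKA, which then release the catalytic subunits, and it binds the Epac proteins, which activate the small G protein Rap. In the nucleus, PKA phosphorylates CREB, and the CRTC proteins serve as its coactivators. In beta cells, the incretin hormones raise cyclic AMP and so amplify the secretion of insulin that glucose sets off, while in alpha and delta cells the same messenger acts on the release of glucagon and somatostatin.

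The 250 bases before the start annotated by RefSeq are shown for Pde5a, Prkar2b, Adcy1 and Adcy2. Pde5a and Prkar2b were the members called higher in cells with insulin only than in each other single-hormone group. Adcy1 and Adcy2 are a pair of cyclases that differed in cells with glucagon only. There, Adcy1 was highest among the hormone groups and no Adcy2 was found. By GENCODE, the source of the gene positions below, Pde5a (122728947) and Prkar2b (32061296) start within the bases shown. Sequences are from RefSeq on GRCm38.p6, 5′ to 3′ on the strand of the gene, and capitals mark the GC box GGGCGG on either strand. Pde5a lies at chr3:122728908-122729157 on the plus strand, Prkar2b at chr12:32061278-32061527 on the minus strand (1 of its 2 listed starts), Adcy1 at chr11:7063183-7063432 on the plus strand and Adcy2 at chr13:68999542-68999791 on the minus strand.
Pde5a: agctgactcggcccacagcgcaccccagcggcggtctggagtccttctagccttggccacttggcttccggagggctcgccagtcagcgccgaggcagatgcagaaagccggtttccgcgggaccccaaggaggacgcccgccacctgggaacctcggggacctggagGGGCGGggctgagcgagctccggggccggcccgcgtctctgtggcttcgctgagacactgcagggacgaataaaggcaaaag
Prkar2b: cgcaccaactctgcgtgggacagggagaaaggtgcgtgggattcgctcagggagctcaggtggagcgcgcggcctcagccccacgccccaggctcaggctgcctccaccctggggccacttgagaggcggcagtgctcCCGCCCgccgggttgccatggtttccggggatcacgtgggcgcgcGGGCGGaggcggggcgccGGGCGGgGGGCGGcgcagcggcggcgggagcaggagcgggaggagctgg
Adcy1: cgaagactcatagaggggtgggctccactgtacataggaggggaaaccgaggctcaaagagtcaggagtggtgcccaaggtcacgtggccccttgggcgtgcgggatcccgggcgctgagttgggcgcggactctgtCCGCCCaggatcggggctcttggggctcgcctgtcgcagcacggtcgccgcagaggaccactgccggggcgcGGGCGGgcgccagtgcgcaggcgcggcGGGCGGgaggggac
Adcy2: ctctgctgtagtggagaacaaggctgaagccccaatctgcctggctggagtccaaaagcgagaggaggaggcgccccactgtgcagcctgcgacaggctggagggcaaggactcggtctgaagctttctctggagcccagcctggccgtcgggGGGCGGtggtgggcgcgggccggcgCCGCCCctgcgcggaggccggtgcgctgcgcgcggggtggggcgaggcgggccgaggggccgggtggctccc
The GC box occurred once or more in each: 1 in Pde5a, 4 in Prkar2b, 3 in Adcy1 and 2 in Adcy2, and the G and C content was 68.4%, 75.6%, 71.2% and 73.2%. Over promoters of 300 bases, which add 50 bases after the start, 35.7% of all 32851 promoters held a GC box, against 43.3% of the 90 promoters of the 47 members that had an entry. The cyclic AMP response element TGACGTCA, the sequence that CREB is known to bind, was searched in the same promoters and was present in 1.79% of all and in 3 of the 90. The 3 belonged to Creb5 and, over overlapping windows of alternative starts, to Prkar1a, which encodes the regulatory subunit RI alpha. These are shown in windows of 30 bases with the element in capitals, at chr6:53287247-53287276 and chr11:109650889-109650918, both on the plus strand.
Creb5: ggaatcccacgTGACGTCAccgggggggtg
Prkar1a: gcgaggcgcatTGACGTCAgcagccgaacg
The shorter TGACG, which is part of the full element, was found on either strand in 20.8% of all promoters and in 25.6% of those of members, and TATAAA in 13.6% and 4.44%. These matches describe the letters of the windows and were not tested against the levels.

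Library 1 held 735 cells with 15931154 unique molecular identifiers (UMIs, each standing for a captured transcript), and library 2 held 748 cells with 17440292. No cell barcode was shared between them (0 barcodes). Cells were grouped by which hormones reached 1% of their UMIs, where insulin is the sum of Ins1 and Ins2, the products of both mouse insulin genes. In libraries 1 and 2 this gave 182 and 190 cells with insulin only, 182 and 174 with Gcg (glucagon) only, 35 and 23 with Sst (somatostatin) only, 54 and 68 with Ppy (pancreatic polypeptide) only, 65 and 86 with Gcg and Ppy, 77 and 71 with Sst and Ppy, and 91 and 92 with no hormone. The UMIs of the members were summed over the cells of each group in each library, and levels are UMIs per 1000000 UMIs of all genes other than the 5 hormone genes, written as CPM. The summed sets ranged from 298300 such UMIs (Sst only, library 2) to 2823605 (Gcg only, library 2), so members were measured least precisely in Sst only cells.

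The labels name the cells only as islet cells. Of the markers other than the hormones, the beta list summed to 55617 and 57159 CPM in insulin only cells and to at most 2027 in Gcg only cells, and the alpha list to 47519 and 49080 in Gcg only cells and to at most 1826 in insulin only cells. The lists overlapped more in Sst only cells, where the delta list summed to 7085 and 6980, the beta list to 15299 and 15541 and the gamma list to 12987 and 13336, while the gamma list reached 54670 and 42043 in Ppy only cells. The cells with no hormone were not 1 cell type. Of these 183 cells, 61 held at least 3 endothelial markers, 77 at least 3 leukocyte markers, 3 both and 42 neither. Endothelial markers also reached 659 CPM in the Sst only cells of library 1 against 57.0 in library 2. With cells of at least 3 endothelial or leukocyte markers removed from the hormone groups, the calls on members that were lost were those on Adcy2 between Gcg only and Ppy only cells and on Rapgef4 in cells with no hormone. Other calls were gained. For insulin only cells these were Creb1 and Rapgef3 against Gcg only, Creb1 against Sst only, and Creb1, Pde7b, Rapgef4 and Rapgef6 against Ppy only cells. Pde8a was gained between Gcg only and Sst only cells, and Creb3l2 between Sst only and Ppy only cells. Insulin in groups without it came to 0.327% to 0.592% of its median share in insulin only cells. The grouping itself limits this share, since cells with 1% or more insulin were placed elsewhere.

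Of the 62 members, 49 passed the filter on low counts and were tested among 14955 genes. The other 13 had 3 to 88 UMIs over all cells of both libraries. They included Adcy10, the soluble cyclase, Adcy3, and Pde2a, which had 3 UMIs, all in cells with no hormone. The 6 members of the Pde6 family are best known as rod and cone enzymes, and 5 of them were among these 13, the exception being Pde6d, which encodes a protein that carries prenylated proteins and is no catalytic subunit. A member can pass the filter through the group in which it is high, so the counts below describe the 49 and are set beside the share of all tested genes. Differences were tested with edgeR's quasi-likelihood test with Benjamini-Hochberg adjustment over all genes tested, and a call is an adjusted p below 0.05.

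**Figure D1:**
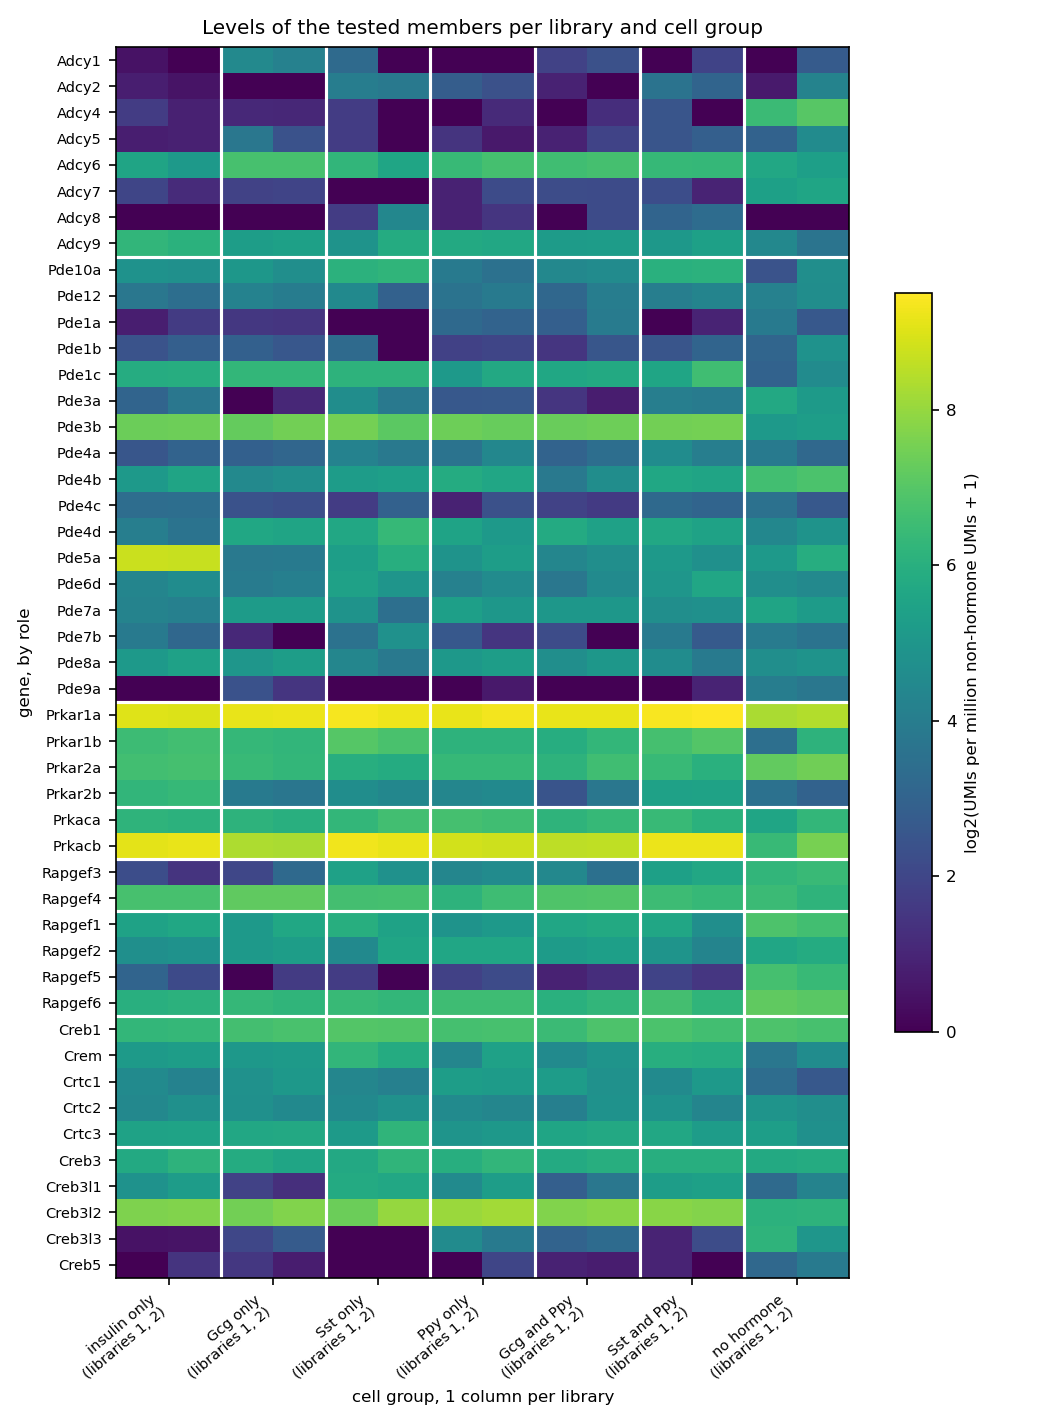
Levels of tested members in each library and cell group, as log2(CPM + 1); the antisense transcripts are left out, and white lines part the roles and the groups. Pde5a stands out in both insulin only columns, Adcy4, Adcy7 and Rapgef5 in the no hormone columns, and Creb3l1 is dark in the Gcg only columns.

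Between insulin only and Gcg only cells, the best sampled groups, 17 members were called. Higher in insulin only cells were 9, or 18.4% of those tested beside 12.8% of all genes, and higher in Gcg only cells were 8, or 16.3% beside 12.2%. The 9 were Pde5a, Prkar2b, Creb3l1, Pde3a, Pde7b, Rapgef5, Prkacb, Adcy9 and Pde4b, and the 8 were Adcy1, Adcy5, Adcy6, Pde4d, Pde7a, Pde9a, Creb3l3 and Rapgef4. The median absolute log2 fold change was 0.50 over the members and 0.47 over all genes. When sums were scaled to all UMIs with the hormones included, which moved the median of all genes by -0.34 on the log2 scale, 6 members were called higher in insulin only cells and 14 lower.

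**Figure D2:**
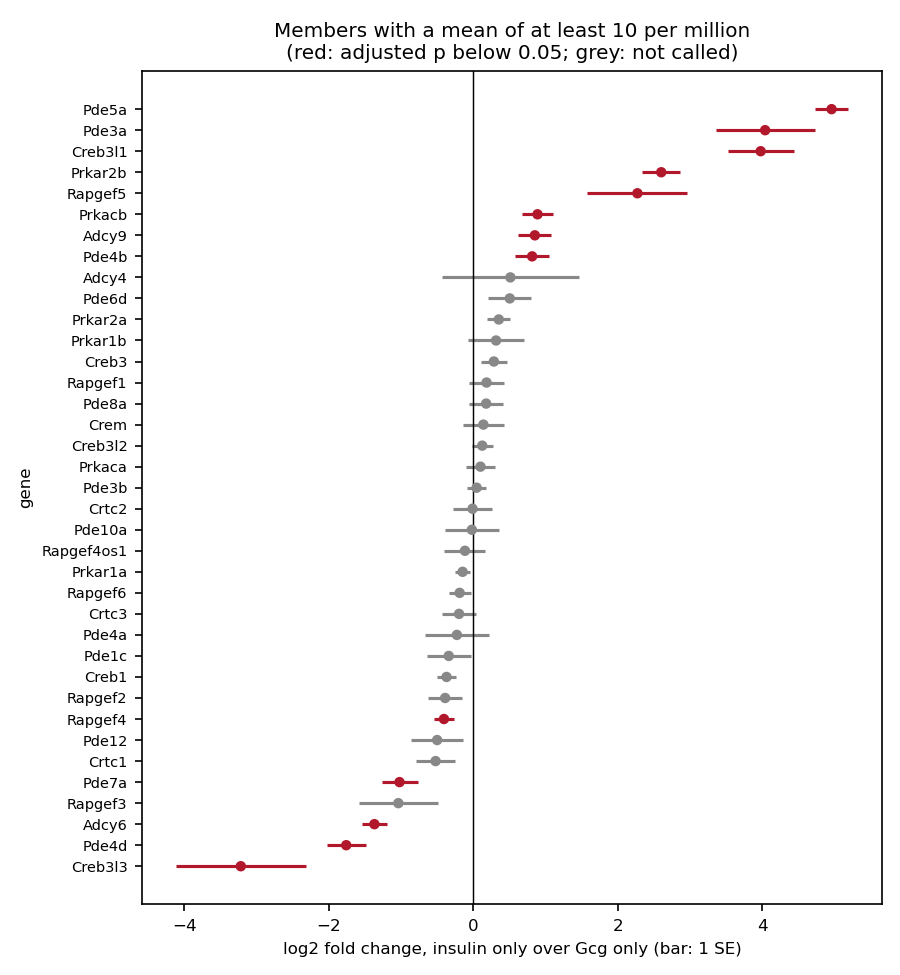
Log2 fold change of insulin only over Gcg only cells for tested members with a mean of at least 10 CPM over the 14 sums, with bars of 1 standard error. Red points passed an adjusted p of 0.05 (edgeR), with Pde5a at 4.96 at the top and Creb3l3, which had 2 UMIs in insulin only cells, at -3.22 at the bottom.

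The cyclases divided by cell group. Adcy6, an isoform that calcium inhibits, was measured at 45.4 and 33.7 CPM in insulin only cells of libraries 1 and 2, at 104 and 106 in Gcg only cells, at 74.7 and 46.9 in Sst only cells, and at 84.2 and 102 in Ppy only cells. Both libraries of the Gcg only and Ppy only groups were above both of the insulin only group. The log2 fold change of insulin only against Gcg only cells was -1.37 ± 0.18 (SE, edgeR adjusted p = 3.47e-05) and against Ppy only cells -1.18 ± 0.19 (adjusted p = 0.000294). Adcy6 was also called higher in Gcg only than in Sst only cells (0.86 ± 0.23, edgeR adjusted p = 0.0211), where the level in Sst only cells differed between libraries, and this call was lost with DESeq2 (adjusted p = 0.0814) and with scaling to all UMIs (adjusted p = 0.225). Adcy9, a widely expressed isoform, had the reverse order, at 74.9 and 65.3 CPM in insulin only cells and 38.1 and 41.4 in Gcg only cells, with a log2 difference of 0.85 ± 0.23 (edgeR adjusted p = 0.0117). With scaling to all UMIs, the call on Adcy9 was lost (0.51, adjusted p = 0.11).

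Further cyclases had a low level in total and were picked for description after their values were seen. Adcy1, a cyclase that calcium and calmodulin stimulate, was found at 20.9 and 17.0 CPM in Gcg only cells, on 103 UMIs, while insulin only cells held 1 UMI and Ppy only cells 0. The ratio to insulin only cells was 96.1, with a counting interval of 16.9 to 3832, and against Ppy only cells Adcy1 was at least 18.1-fold higher, taking 3 counts over the group as the floor. Sst only cells held 4 UMIs of Adcy1 (8.79 and 0 CPM), and it was not called between Gcg only and Sst only cells. Gcg and Ppy cells held 9 UMIs of Adcy1 (2.69 and 4.17 CPM), below Gcg only cells in both libraries. Between the groups with Gcg, with and without Ppy, the unadjusted p was 0.0158 and the edgeR adjusted p was 0.782.

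Adcy2, an isoform that calcium is not known to stimulate directly, was as scarce as Adcy1 in insulin only cells but was missing from Gcg only cells. It had 0 UMIs in the 356 Gcg only cells, 3 in insulin only cells, and 15.4 and 13.4 CPM in Sst only cells on 11 UMIs. Sst only cells were at least 26.5-fold above Gcg only cells, and 24.7-fold above insulin only cells with a counting interval of 6.54 to 138. Sst and Ppy cells, at 11.2 and 7.31 CPM, and Ppy only cells, at 6.02 and 4.10, also held Adcy2, and both libraries of each lay above both of the Gcg only and insulin only groups. The difference of Gcg only from Ppy only cells, called at an edgeR adjusted p of 0.0483, was not called with the library as a block (0.0563), nor with scaling to all UMIs (0.0514), other hormone thresholds or marker-bearing cells removed (0.0712).

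Adcy8, which calcium and calmodulin also stimulate, was listed with 0 UMIs in insulin only, Gcg only and no hormone cells. It had 2.20 and 20.1 CPM in Sst only cells, on 7 UMIs of which 71.4% came from 3 cells, and 7.44 and 9.14 in Sst and Ppy cells on 18 UMIs. Sst and Ppy cells were at least 14.1-fold above insulin only and at least 15.1-fold above Gcg only cells. Adcy5, an isoform that calcium inhibits, had 12.6 and 4.25 CPM in Gcg only cells against 0.738 and 0.842 in insulin only cells (edgeR adjusted p = 0.0113). Of the 8 cyclases tested, 6 were called in at least 1 of the comparisons between single-hormone groups, beside 38.4% of all genes tested, and the other two, Adcy4 and Adcy7, were called only against cells with no hormone.

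**Figure D3:**
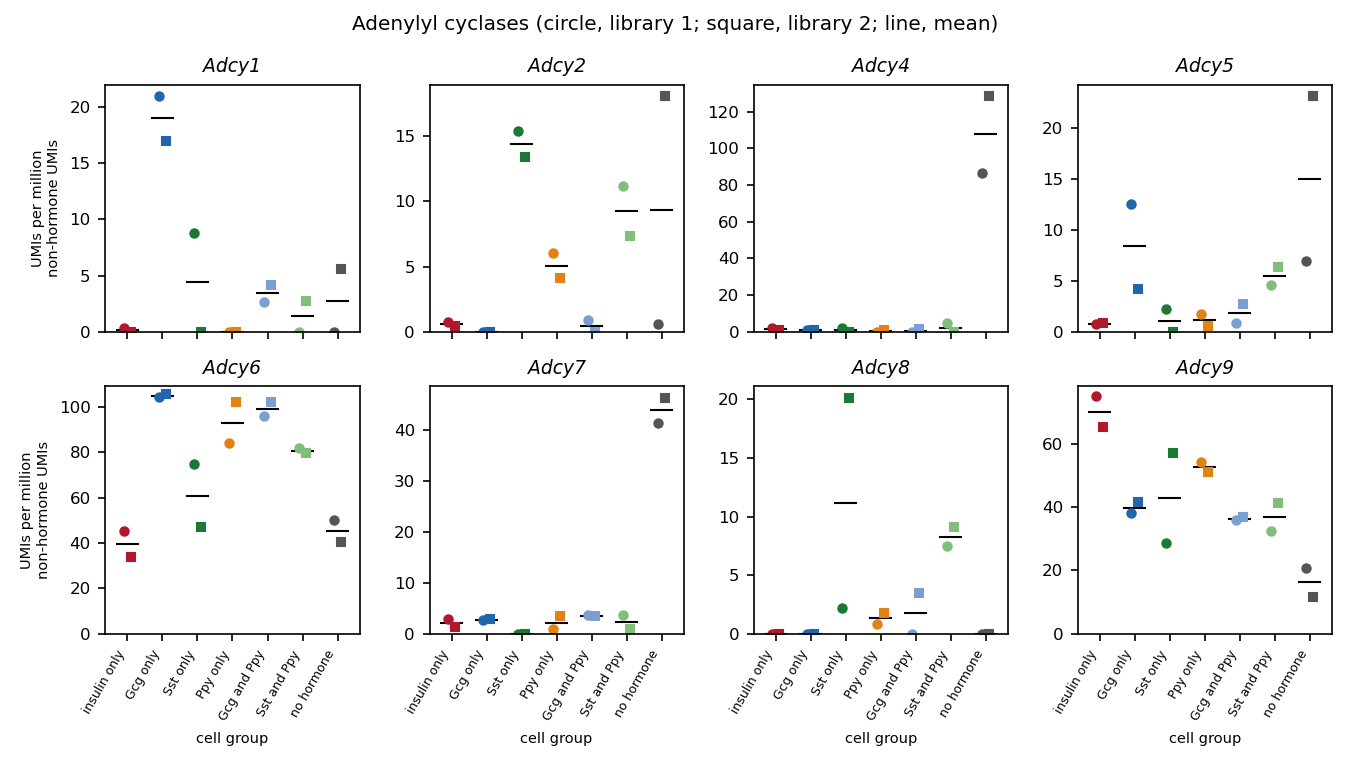
Levels of 8 adenylyl cyclases by cell group, in CPM, with a circle for library 1, a square for library 2 and a line at their mean; each panel has its own axis from 0. Adcy1 is highest in Gcg only cells, Adcy2 and Adcy8 in cells with Sst among the hormone groups, and Adcy4 and Adcy7 in cells with no hormone.

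Among the phosphodiesterases, Pde5a had the largest difference with respect to its error. It encodes a phosphodiesterase specific for cyclic GMP, the target of sildenafil, and lies on chromosome 3 from 122728947 to 122859374 (GRCm38, plus strand), where 2 genes of the other strand overlap it. The level was 424 and 414 CPM in insulin only cells, 13.3 and 14.2 in Gcg only cells, 39.6 and 60.3 in Sst only cells, and 28.4 and 38.1 in Ppy only cells. Every insulin only value was above all the others without overlap, and the spread between libraries was small beside the difference (419 ± 7.44, SD, n = 2). The fold over Gcg only cells was 31.0 (log2 4.96 ± 0.23, edgeR adjusted p = 7.5e-10), over Sst only cells 9.69 (log2 3.28 ± 0.26, adjusted p = 6.26e-07) and over Ppy only cells 12.9 (log2 3.68 ± 0.22, adjusted p = 1.9e-08). Pde5a was lower in Gcg only cells than in Sst only cells (-1.68 ± 0.35, edgeR adjusted p = 0.00475) and than in Ppy only cells (-1.27 ± 0.28, adjusted p = 0.00841).

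In single cells, Pde5a had at least 1 UMI in 91.2% of the insulin only cells of library 1 (95% exact Clopper-Pearson interval 86.1 to 94.9) and in 86.3% in library 2 (80.6 to 90.9), against 10.4% and 16.1% of Gcg only cells. After each cell was thinned to 4000 non-hormone UMIs, the shares were 74.2% and 69.3% in insulin only cells and 4.95% and 5.17% in Gcg only cells. Among the 77 cells with leukocyte markers, a group without hormones at a median of 10768 UMIs per cell, 4 cells had a UMI of Pde5a, while insulin only cells had a median of 18734.5 UMIs. The other cells without hormones held more. Pde5a was at 22.2 and 51.8 CPM in the 61 cells with endothelial markers, 7 of which had a UMI. In the 42 cells with neither set of markers it was at 75.5 and 138, with a UMI in 18. The mean level of Pde5a in Gcg only cells was 3.28% of that in insulin only cells. The intervals cover counting error only.

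Pde4d, which hydrolyses cyclic AMP, was lower in insulin only cells than in every other single-hormone group. It had 15.9 and 11.4 CPM there, 49.9 and 45.3 in Gcg only cells, 50.5 and 80.5 in Sst only cells and 44.7 and 34.01 in Ppy only cells. Log2 fold changes of insulin only cells were -1.76 ± 0.27 against Gcg only, -2.05 ± 0.33 against Sst only and -1.45 ± 0.29 against Ppy only cells (edgeR adjusted p = 0.00016, 0.000601 and 0.00203). The annotation places 3 other genes within Pde4d on its own strand and 2 on the other. Pde7a, another enzyme for cyclic AMP, was likewise lower in insulin only cells, at 18.1 and 16.4 CPM, than in Gcg only cells at 36.2 and 35.8 (-1.02 ± 0.25, edgeR adjusted p = 0.00682). Its difference from Ppy only cells, at 40.4 and 31.7 (-0.99, adjusted p = 0.015), was lost with DESeq2 (adjusted p = 0.0538).

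A pair of phosphodiesterases was nearly missing from Gcg only cells. Pde3a, which hydrolyses both cyclic nucleotides and is inhibited by cyclic GMP, had 3 UMIs among them against 50 in insulin only cells (7.38 and 12.6 CPM), 15 in Sst only cells (24.2 and 13.4) and 15 in Ppy only cells (5.16 and 5.28). Insulin only cells held 17.9 times the level of Gcg only cells, with a counting interval of 5.77 to 89.5, and the edgeR adjusted p was 0.00042. Pde7b, chosen after its values were seen, also had 3 UMIs in Gcg only cells, against 13.7 and 8.00 CPM in insulin only and 10.99 and 26.8 in Sst only cells. The ratio of insulin only to Gcg only cells was 20.0 (6.503 to 99.9, edgeR adjusted p = 0.00433). The related Pde3b, an enzyme that insulin is known to activate in fat and liver, did not separate the hormone groups: it had 164 and 168 CPM in insulin only, 152 and 178 in Gcg only, 182 and 137 in Sst only and 167 and 155 in Ppy only cells. With scaling to all UMIs, Pde3b was called in both comparisons of Sst only with insulin only and Ppy only cells.

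Pde10a, an enzyme for both nucleotides, was 1 of the 2 members called between Sst only and Ppy only cells, at 68.1 and 73.8 CPM against 13.8 and 10.6 (log2 2.45 ± 0.51, edgeR adjusted p = 0.00639). Sst and Ppy cells had 64.2 and 67.7, close to Sst only cells. Pde4b, which hydrolyses cyclic AMP, had 33.6 and 45.9 CPM in insulin only, 21.3 and 24.8 in Gcg only and 56.7 and 48.7 in Ppy only cells, and Gcg only cells were below Ppy only cells by -1.16 ± 0.24 (log2, edgeR adjusted p = 0.00592). Its smaller difference between insulin only and Gcg only cells (0.81, adjusted p = 0.0174) was lost with DESeq2 (0.0501) and with scaling to all UMIs (0.134). Pde8a, specific for cyclic AMP, was called higher in insulin only cells, at 34.3 and 42.1, than in Sst only cells, at 19.8 and 13.4 (1.31 ± 0.38, edgeR adjusted p = 0.0298), and Pde4a, of the same specificity, lower in insulin only cells, at 4.80 and 7.16, than in Ppy only cells, at 11.2 and 19.9 (-1.35 ± 0.44, adjusted p = 0.0407). Both of these calls were lost with DESeq2, at adjusted p of 0.107 and 0.144. They were also lost with hormone thresholds of 0.5% (edgeR adjusted p = 0.0708 and 0.0514) and 2% (0.0597 and 0.0520). Scaling to all UMIs lost the call on Pde8a as well (edgeR adjusted p = 0.279). The call on Pde4a was lost too without the low-count filter (edgeR adjusted p = 0.0720) and with Ppy ignored in Gcg and Sst cells (0.0503). Pde1c, which calcium and calmodulin activate, had 57.9 and 59.8 CPM in insulin only and 76.2 and 76.5 in Gcg only cells and was not called between single-hormone groups. Of the 17 phosphodiesterases tested, 12 were called in at least 1 of these comparisons, again beside 38.4% of all genes.

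**Figure D4:**
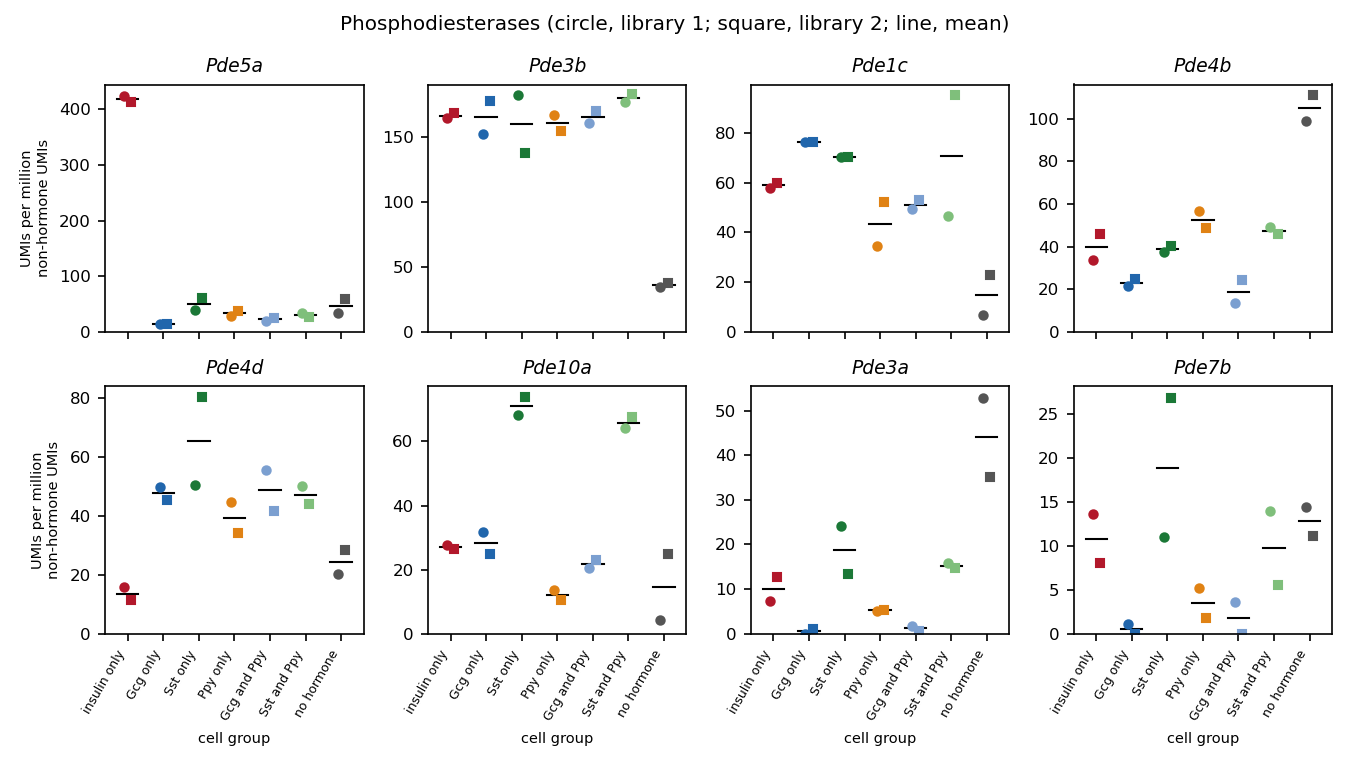
Levels of 8 phosphodiesterases by cell group, in CPM, with a circle for library 1, a square for library 2 and a line at their mean; each panel has its own axis from 0. Pde5a in insulin only cells, at 424 and 414, stands far above its other groups, Pde3b is level across the hormone groups, and Pde3a and Pde7b are close to 0 in Gcg only cells.

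Among the subunits of PKA, Prkar2b differed between insulin only cells and each other single-hormone group. Prkar2b, the regulatory subunit RII beta, on chromosome 12 from 31958476 to 32061296 (minus strand, no overlapping gene), had 74.2 and 80.9 CPM in insulin only cells. It had 13.7 and 12.4 in Gcg only, 24.2 and 20.1 in Sst only and 19.8 and 21.7 in Ppy only cells, with no overlap. Insulin only cells were 6.06-fold above Gcg only cells (log2 2.60 ± 0.26, edgeR adjusted p = 2.98e-06), 3.84-fold above Sst only cells (1.94 ± 0.35, adjusted p = 0.00134) and 3.86-fold above Ppy only cells (1.95 ± 0.27, adjusted p = 9.01e-05). At least 1 UMI of Prkar2b was found in 53.3% and 44.7% of insulin only cells and in 13.7% and 17.8% of Gcg only cells, and after thinning in 24.2% and 25.4% against 6.04% and 5.17%. In cells with no hormone, 7.69% and 8.70% had a UMI of it.

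The other regulatory subunits were more even. Prkar1a, RI alpha, ranged from 515 to 659 CPM over the libraries of the 4 single-hormone groups and was not called between any of them, although scaling to all UMIs called it in each of these comparisons except Gcg only against Ppy only. Prkar2a, RII alpha, had 98.2 and 101.5 in insulin only and 61.5 and 57.0 in Sst only cells (0.90 ± 0.22, edgeR adjusted p = 0.0116), a difference that scaling to all UMIs brought to 0.16 (adjusted p = 0.621). Prkacb, the catalytic subunit C beta, had 551 and 579 CPM in insulin only, 317 and 309 in Gcg only, 622 and 580 in Sst only and 460 and 434 in Ppy only cells. It was lower in Gcg only than in insulin only cells (log2 difference of insulin only over Gcg only 0.89 ± 0.22, edgeR adjusted p = 0.00699) and than in Sst only cells (-0.82 ± 0.23, adjusted p = 0.0279). The first of these was not called with scaling to all UMIs (0.54, adjusted p = 0.0684), and the other was not called with a hormone threshold of 0.5% (adjusted p = 0.0569). Prkaca, the catalytic subunit C alpha, was not called in any comparison, with 63.0 to 102 CPM over the single-hormone groups, except between insulin only and Sst only cells with scaling to all UMIs.

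The Epac genes differed in opposite groups. Rapgef3, Epac1, had 3.69 and 1.68 CPM in insulin only, 3.05 and 8.50 in Gcg only, 41.8 and 26.8 in Sst only, and 19.8 and 22.9 in Ppy only cells. Sst only and Ppy only cells were above the other two groups in both libraries. Log2 fold changes of insulin only cells were -3.50 ± 0.57 against Sst only and -2.88 ± 0.49 against Ppy only cells (edgeR adjusted p = 0.000592 and 0.000567), and those of Gcg only cells -2.46 ± 0.51 and -1.84 ± 0.42 (adjusted p = 0.004 and 0.0115). Endothelial cells were rich in Rapgef3 here (below). With marker-bearing cells removed from the hormone groups, these 4 calls stayed, and Rapgef3 was also called between insulin only and Gcg only cells. This further call was also made with Ppy ignored. The difference of Gcg only from Ppy only cells was not called with a hormone threshold of 0.5% (edgeR adjusted p = 0.0531). Rapgef4, Epac2, the form that is known in beta cells as a target of incretin signalling, was named after its values were seen. It had 104 and 105 CPM in insulin only, 142 and 142 in Gcg only, 101.1 and 104 in Sst only and 68.8 and 91.5 in Ppy only cells. Of the single-hormone groups, Gcg only cells were the highest, by 0.83 ± 0.15 over Ppy only cells on the log2 scale (edgeR adjusted p = 0.00202). The difference was 0.60 over Sst only (edgeR adjusted p = 0.037) and 0.41 over insulin only cells (adjusted p = 0.0438). These last 2 calls were lost with the library as a block, RLE size factors, DESeq2 and a hormone threshold of 0.5%. Scaling to all UMIs also lost the call over Sst only cells. The call over insulin only cells was also lost without the low-count filter and with Ppy ignored. Among cells with no hormone, those with endothelial markers had 237 and 154 CPM of Rapgef4, above Gcg only cells in both libraries. Those with leukocyte markers had 7.51 and 12.5. Antisense genes overlap both Epac genes, 3 of them members within Rapgef4, and since no source used here states that the counting kept to the strand, reads of these pairs may not be told apart. Rapgef5, an exchange factor not known to bind cyclic AMP, had at most 7.38 CPM in the hormone groups of the fit, and its call between insulin only and Gcg only cells (7.38 and 3.37 against 0 and 2.12, edgeR adjusted p = 0.0248) was lost with a threshold of 0.5% (0.052).

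Of the nuclear factors, Creb1, Crem and the coactivators Crtc1, Crtc2 and Crtc3 had 0 calls between single-hormone groups by edgeR and 0 by DESeq2, with 9 of 30 tests at an unadjusted p below 0.05. With scaling to all UMIs, however, Creb1 was called in 4 of the 6 comparisons, Crem in 3, Crtc1 in 2 and Crtc3 in 2. Crtc1 was also called between insulin only and Ppy only cells with doublets removed and with Ppy ignored. Crtc3 was also called between Gcg only and Ppy only cells with Ppy ignored. Creb1 had 76.4 and 79.2 CPM in insulin only and 99.03 and 107 in Gcg only cells (edgeR adjusted p = 0.0572). It was called in this comparison also with doublets removed, with marker-bearing cells removed and with Ppy ignored. Between insulin only and Sst only cells, Creb1 was called with RLE size factors and with marker-bearing cells removed. Removing marker-bearing cells also gave a call on Creb1 between insulin only and Ppy only cells. Crem, whose shorter product ICER represses the same elements, had 34.7 and 37.9 in insulin only, 32.8 and 34.7 in Gcg only, 74.7 and 57.0 in Sst only and 19.8 and 42.8 in Ppy only cells. Crtc1 had 22.5 and 17.7, 27.0 and 32.2, 19.8 and 16.8, and 37.8 and 36.4 CPM in the same order of groups.

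The Creb3 factors sit in the membrane of the endoplasmic reticulum and are cut free by proteases. Of the 5 in this family, Creb3l1, Creb3l2 and Creb3l3 were called between single-hormone groups, Creb3 was called in none of the comparisons, and Creb3l4 was not tested. Creb3l1 had 27.3 and 37.1 CPM in insulin only, 54.9 and 50.3 in Sst only and 22.3 and 37.5 in Ppy only cells, but 2.67 and 1.42 in Gcg only cells. The Gcg only group was below each of the others without overlap, by log2 differences of 3.98 ± 0.46 (insulin only over Gcg only, edgeR adjusted p = 1.05e-05), -4.53 ± 0.53 (Gcg only over Sst only, adjusted p = 2.97e-05) and -3.85 ± 0.47 (Gcg only over Ppy only, adjusted p = 9.61e-05). Gcg and Ppy cells had 6.27 and 12.5, between these levels. Creb3l3, best known from liver, was found at 23.2 and 14.1 CPM in Ppy only cells, at 3.05 and 5.67 in Gcg only cells, with 2 UMIs in insulin only cells and 0 in Sst only cells. Ppy only cells were 45.2 times above insulin only cells (counting interval 11.9 to 383, edgeR adjusted p = 0.000229) and at least 4.46-fold above Sst only cells (adjusted p = 0.0176). Creb3l2 was at 266 and 286 in Ppy only and 177 and 209 in Gcg only cells, called at -0.50 ± 0.15 for Gcg only over Ppy only (edgeR adjusted p = 0.0483) but not with DESeq2 (0.0506).

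**Figure D5:**
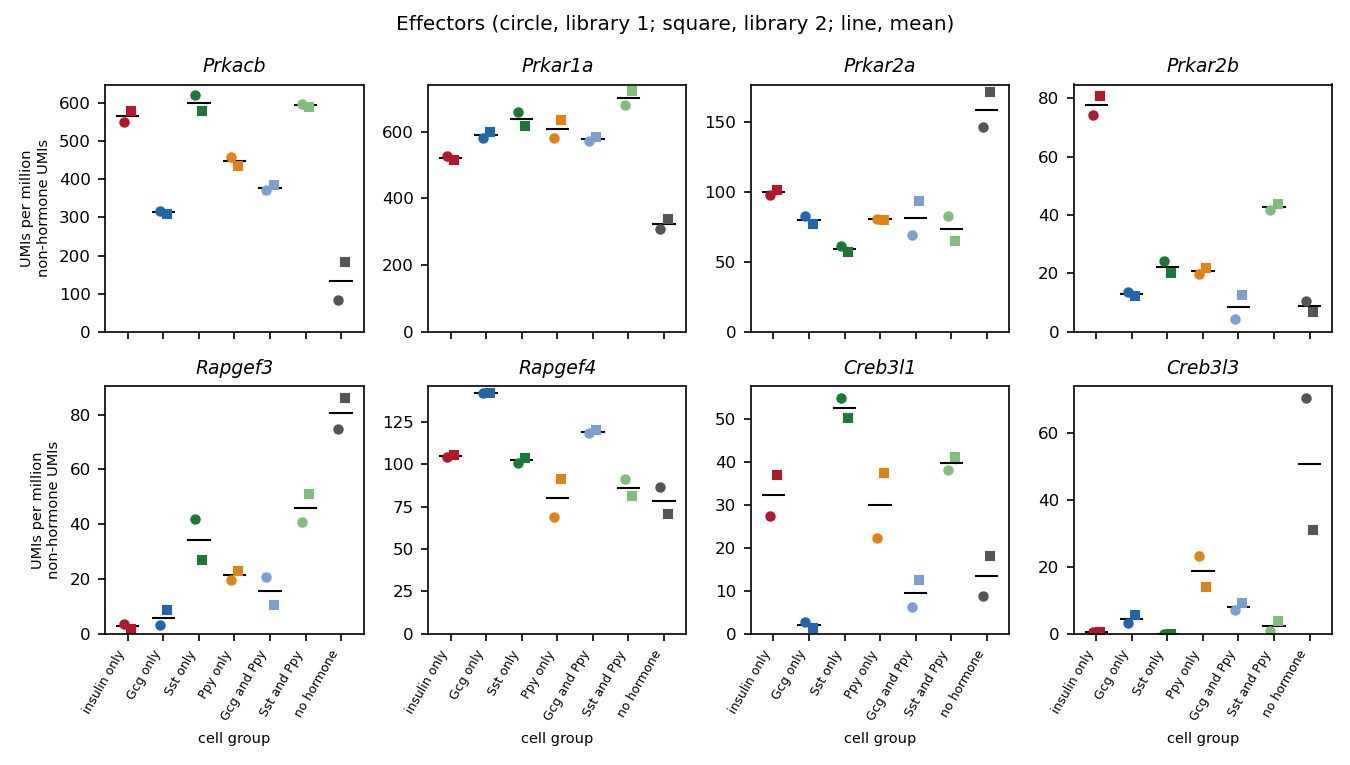
Levels of PKA subunits, Epac genes (Rapgef3, Rapgef4) and Creb3 factors by cell group, in CPM, with a circle for library 1, a square for library 2 and a line at their mean; each panel has its own axis from 0. Prkar2b is highest in insulin only cells, Rapgef3 is low in insulin only and Gcg only cells, and Creb3l1 is close to 0 in Gcg only cells.

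Counted by comparison, 8 members were called between insulin only and Sst only cells, 4 higher (8.16% beside 7.48% of all genes) and 4 lower (8.16% beside 6.97%), and 11 between insulin only and Ppy only cells, 3 higher (6.12% beside 10.3%) and 8 lower (16.3% beside 9.87%). With scaling to all UMIs these became 2 higher and 19 lower, and 2 higher and 13 lower, as the median of all genes moved by -0.73 and -0.15. Gcg only cells had 2 members higher and 8 lower than Sst only cells (4.08% and 16.3%, beside 6.01% and 6.31%) and again 2 higher and 8 lower than Ppy only cells (beside 4.72% and 4.77%). The corresponding splits with all UMIs were 0 and 13, and 4 and 6, at median shifts of -0.39 and 0.20. Sst only and Ppy only cells differed in 1 member each way (2.04% beside 4.67% and 4.41%), and with all UMIs in 15 and 1, at a shift of 0.58. Altogether 28 members were called in at least 1 comparison of single-hormone groups, or 57.1% of those tested beside 38.4% of all genes.

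Cells with a hormone and Ppy were set against the cells with that hormone alone. No member was called by edgeR between Gcg and Ppy and Gcg only cells (0 of 49, beside 0.0401% of all genes), where 8 had an unadjusted p below 0.05 and DESeq2 called 0. Among the 8 were Creb3l1 (log2 2.21 ± 0.58, adjusted p = 0.435), Pde1a (2.48 ± 0.73, adjusted p = 0.586) and Rapgef3 (1.35 ± 0.46, adjusted p = 0.75), each higher with Ppy, and Adcy1, lower. Between Sst and Ppy and Sst only cells, edgeR also called 0 (beside 0.0134% of all genes), DESeq2 0, and 1 member, Prkar2b, had an unadjusted p below 0.05, with 41.9 and 43.9 against 24.2 and 20.1 CPM (0.96 ± 0.38, edgeR adjusted p = 0.718). The difference between these Ppy steps gave 0 calls by edgeR and DESeq2 (beside 0.0134%), and 5 members with an unadjusted p below 0.05.

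Cells with no hormone differed in most of the pathway, as in most genes. Against the mean of the 4 single-hormone groups, 19 members were higher (38.8% beside 33.4% of all genes) and 13 lower (26.5% beside 26.3%), and 23 and 8 with scaling to all UMIs, at a median shift of 0.39. Pde3b, at 34.6 and 37.5 CPM, was lower by -2.09 ± 0.14 (edgeR adjusted p = 4.47e-09). Lower as well were Prkacb (84.2 and 184, log2 -1.69), Prkar1a (309 and 340, -0.78), Prkar2b (-1.52), Pde1c (6.92 and 22.7, -1.88), Crtc1 (-1.76), Creb3l2 (-1.59), Adcy9 (-1.56) and Crem (-1.03), each called by edgeR, although Crem was not with scaling to all UMIs (adjusted p = 0.0552). The fall in Prkacb and Pde1c differed between libraries, as their values show.

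The members that were higher in these cells belonged to different subsets. Adcy4 had 86.8 and 128 CPM, against at most 4.65 in any library of a group with hormones in the fit, and 364 of its 415 UMIs came from cells with endothelial markers, where it had 277 and 263. Rapgef3 had 260 and 198 in the endothelial-marker cells and 1 UMI in those with leukocyte markers, and Rapgef5 had 251 and 163 against 33.8 and 17.8. Adcy7, an isoform known from blood cells, went the other way, with 120 and 164 CPM in the leukocyte-marker cells and 3 UMIs in the endothelial-marker cells. Pde4b, a phosphodiesterase with a known role in leukocytes, had 133 and 191 in leukocyte-marker cells and 120 and 109 in endothelial-marker cells. In the 42 cells with neither set of markers, Creb3l3 had 192 and 120 CPM, with 178 of the 179 UMIs it had in cells with no hormone, and Pde3a had 105 and 79.8. The count of Creb3l3 rested on few cells, as 65.9% of the 179 UMIs came from 3 cells and 12 of the 42 cells held any. These subsets were cut by marker genes and their values carry no test.

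Prkar2a was the only regulatory subunit of PKA called higher in cells with no hormone, at 146 and 171 CPM (1.101 ± 0.124, edgeR adjusted p = 1.76e-06), and Rapgef1, an exchange factor bound through adaptor proteins, had 115 and 98.2 (1.39 ± 0.18, adjusted p = 8.28e-06). Pde7a had 45.9 and 36.1 (0.72 ± 0.20, edgeR adjusted p = 0.00607). These levels were uneven over the subsets. Pde7a had 99.6 and 60.6 CPM in leukocyte-marker cells, 17.8 and 28.6 in endothelial-marker cells and 20.6 and 21.8 in cells with neither. Prkar2a had 65.8 and 73.1 in leukocyte-marker cells, 153 and 204 in endothelial-marker cells and 211 and 256 in cells with neither. Rapgef1 had 152 and 94.4, 166 and 139, and 44.6 and 45.3 in the same order. The call on Adcy2 in cells with no hormone (edgeR adjusted p = 0.0051) rested on few cells. Of its 40 UMIs there, 95% came from 3 cells, and the libraries gave 0.629 and 18.1 CPM. From library 1 alone, the log2 difference was -1.07. Of the UMIs of Prkar1b, 85.5% in cells with no hormone came from 3 cells, with 10.1 and 69.5 CPM. Adcy6 was lower by -0.56 (edgeR adjusted p = 0.0069), but it was not called by DESeq2 (adjusted p = 0.0544). With scaling to all UMIs the difference was -0.17 (edgeR adjusted p = 0.406).

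Genes around the pathway were read from 4 lists, whose counts between insulin only and Gcg only cells stand beside 12.8% of all genes higher and 12.2% lower. Of 32 receptors, G proteins and ligands, 25 were tested, and between insulin only and Gcg only cells 8 were higher and 9 lower. Glp1r, the receptor of GLP-1, averaged 1445 CPM in insulin only, 6.45 in Gcg only, 159 in Sst only and 22.5 in Ppy only cells (log2 7.83 ± 0.52 for insulin only over Gcg only, edgeR adjusted p = 3.67e-08). Gcgr, the glucagon receptor, averaged 106, 0.571, 28.7 and 1.58, Adra2a, a receptor that couples to inhibition of cyclases, 179, 2.74, 35.5 and 1.74, and Adora1, which does the same for adenosine, 48.2, 0.952, 41.5 and 3.77 in the same order. Gpr119, a lipid receptor that raises cyclic AMP, averaged 34.8 in Gcg only and was listed at 0 in Sst only cells, while Crhr2 averaged 48.3 in Sst only and 0.19 in Gcg only cells.

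In the list of cyclic GMP synthesis and kinases, 11 of 23 genes were tested, with 4 higher and 3 lower in insulin only than in Gcg only cells. Npr1, the receptor cyclase for atrial natriuretic peptide, averaged 28.1 CPM in insulin only and 1.27 in Gcg only cells (log2 4.41 ± 0.52, edgeR adjusted p = 1.45e-05), the direction of Pde5a, while Npr2, the receptor for C-type natriuretic peptide, averaged 21.4 and 81.0. Prkg1, a kinase that cyclic GMP activates, averaged 61.7 in Gcg only, 48.4 in Ppy only, 5.56 in insulin only and 1.099 in Sst only cells. Gucy2c, the guanylin receptor, averaged 27.2 in Sst only and 19.0 in insulin only cells and was listed at 0 in Gcg only cells. The soluble cyclase subunits Gucy1a1 and Gucy1b1 averaged 29.9 and 22.1 in Sst only against 7.98 and 4.48 in insulin only cells.

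Of 39 anchors, inhibitors and other binders, 24 were tested, with 6 higher and 4 lower in insulin only than in Gcg only cells. Hcn4, a channel gated by cyclic nucleotides, averaged 27.2 CPM against 1.66, Pkib, an inhibitor of PKA, 35.9 against 10.6, and Akap12, an anchor of PKA, 3.29 against 37.6. Akap6, another anchor, averaged 15.6 in insulin only and 1.02 in Ppy only cells, and Abcc4, which exports cyclic nucleotides, 23.5 and 4.02. Of the 29 partners and known targets of CREB, all tested, 2 were higher and 16 lower in insulin only than in Gcg only cells, beside the same 12.8% and 12.2%. Among these, Nr4a2 averaged 21.3 and 136 CPM, Sik1, a kinase that restrains CRTC, 4.79 and 28.7, Ier2 93.4 and 406, and Fosb 325 and 1691, while Pcsk1, a prohormone convertase, averaged 571 and 3.33 and Chga 31558 and 14035. Nr4a2, Fosb and Ier2 are immediate early genes. Between Gcg only and Sst only cells 13 of this list were higher and 2 lower, beside 6.01% and 6.31% of all genes, and between Sst only and Ppy only cells 1 and 11, beside 4.67% and 4.41%. All 4 lists had 0 calls by edgeR between cells with and without Ppy.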

How the data were processed

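Processed tables of 2 libraries of control islets, labelled as replicates 1 and 2 of 1 group, were used. The authors deposited whole-number counts, one value for each gene and cell after removal of duplicate reads, made per the methods with the Cytonaut software from reads aligned to exons only, with cell barcodes selected by UMI-tools. The submitters' processing notes name GRCm38. Intronic reads and barcodes below the selection are outside these counts, and strand use in counting is not given in the sources used here. No per-sample column was left out.

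Each cell was assigned by the hormones that reached 1% of its UMIs. UMI counts were summed per library and group over 7 groups (14 sums), without Ins1, Ins2, Gcg, Sst and Ppy, and tested in 1 fit with edgeR 4.0.16 in R 4.3.3 (TMM, filterByExpr, glmQLFit, glmQLFTest, Benjamini-Hochberg adjustment, threshold 0.05). Residual degrees of freedom were 7, and the common coefficient of variation was 15.4%. The test was checked on simulated counts. Cells were not replicates. The sums of different groups in a library come from the same preparation. Their deviations correlated at a median r of 0.00722 over 21 pairs of groups, so the number was not taken as pairing. Scrublet (scanpy 1.11.5, Python 3.11.15) called 1 and 7 cells as doublets, and they were kept. Shares of cells have 95% exact Clopper-Pearson intervals, which cover counting error only, and a count of 0 was given a floor of 3 counts over the group. Thinning to 4000 non-hormone UMIs left out 1 cell. Positions are from GENCODE M21 (GRCm38).

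Members given with values had a mean of at least 10 CPM over the 14 sums and a call of at least 2-fold in 1 of 9 comparisons (24 members), and at most 6 genes per pathway list were named by size of difference. Members outside this rule are named as chosen after their values were seen, or to account for counts. The members, groups and lists were chosen with earlier results of these data known. Alternatives were RLE size factors, scaling to all UMIs, DESeq2 1.42.0, no low-count filter, hormone thresholds of 0.5% and 2%, a library block, doublets removed and each library alone. Merging cells with and without Ppy, and removing cells with endothelial or leukocyte markers, were added after seeing the data.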

Additional observations from a re-analysis of the deposited data

How the results depend on the processing

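Of 97 counts of called members under alternatives, 88 stayed within 1.5 times the reported count and 9 did not. The 88 include counts of 0 that remained 0, as in nearly all settings of the comparisons on Ppy within Gcg and Sst cells. A count within 1.5 times can also hold other members. For insulin only against Gcg only cells, scaling to all UMIs gave 20 calls beside 17, with 14 shared. Among the 9, scaling to all UMIs gave 21 for insulin only against Sst only and 16 for Sst only against Ppy only cells. DESeq2 gave 6 for insulin only against Ppy only cells. A hormone threshold of 0.5% gave 5 for Gcg only against Sst only and 6 for Gcg only against Ppy only cells, and one of 2% gave 4 for Sst only against Ppy only cells. Without a filter on low counts, Sst only against Ppy only cells gave 5 and Gcg and Ppy against Gcg only cells gave 1. With Ppy ignored in Gcg and Sst cells, an alternative chosen after seeing the data, Sst only against Ppy only cells gave 8. The cause of these moves was not tested. The calls on named members followed here numbered 78 and leave out those on Rapgef4, Prkar1a and Prkar1b. Their 780 log2 fold changes under alternatives with a test included 0 that reversed and 49 that fell short of the threshold. Of 156 values from 1 library alone, 1 reversed, that of Adcy2 in cells with no hormone against the single-hormone mean (-1.07 without replicate 2, 3.57 without replicate 1). Counts without 1 library could not be tested, since no residual degrees of freedom remain. With the library as a replicate block, no count moved by over 1.5 times, and the calls lost were those of Rapgef4 against insulin only and Sst only cells, of Pde1a (adjusted p = 0.0638) and Pde4c in insulin only against Ppy only cells, and of Adcy2 in Gcg only against Ppy only cells (adjusted p = 0.0563). In the thinned cells the shares with a UMI were lower for Pde5a, Prkar2b, Adcy6 and Creb3l1. Depth limits Sst only cells most, with 58 cells in all.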

Other observations

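Cells with insulin and another hormone were outside the fit. They numbered 37 in library 1 and 27 in library 2, and Scrublet called 0 and 4 of them as doublets. Pde5a was at 235 and 207 CPM (UMIs per 1000000 non-hormone UMIs) in them, between insulin only cells and every other group. Prkar2b was at 59.4 and 77.7, beside insulin only cells at 74.2 and 80.9. Pde4d was at 40.1 and 31.8 CPM, above both values of insulin only cells, and Rapgef3 was at 16.6 and 23.0, also above both. Adcy1 had 7 UMIs in these cells, all in 3 cells.

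A further 12 and 17 cells had other combinations of hormones without insulin, most of their hormone UMIs being of Gcg. Adcy1 was at 3.27 and 16.7 CPM in them (7 UMIs in 5 cells), Adcy8 at 6.54 and 11.1 (6 UMIs in 4 cells), and Creb3l1 at 32.7 and 22.3 (18 UMIs in 14 cells). These are sums over the group, and whether single cells held these transcripts together was not tested.

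In cells with no hormone, 1 cell of library 2 with endothelial markers held 12 UMIs of Adcy1, the whole of that gene's count in the group, and 1 such cell held 25 of the 40 UMIs of Adcy2. Pde9a, a phosphodiesterase for cyclic GMP, had 51 UMIs in cells with no hormone, of which 41 lay in the cells with neither endothelial nor leukocyte markers, and 0 in insulin only cells.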
